A study of Homo sapiens with 6 samples.

Results

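The 43 genes described here code for the proteins that mark the centromere, build the kinetochore on it and run the spindle checkpoint. They were taken by name from the 21447 genes to which the transcripts of the deposited tables could be assigned, and all 43 were found and were high enough to be tested. The question was how their RNA differed between U-2 OS cells, a human osteosarcoma line, 24 h after 4 Gy of ionizing radiation (IR) and cells left untreated. The cells were not synchronized, and each group had 3 libraries of bulk RNA, named here untreated 1 to 3 and IR 1 to 3. All came from a single cell line, and the study describes the triplicates as distinct and independent samples without saying whether they were separate cultures, so that p-values measure the spread between these libraries.

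The centromere is marked by nucleosomes that hold CENPA, a variant of histone H3, on which a constitutive network of CENP proteins sits throughout the cell cycle. In mitosis this network carries the KMN network (KNL1, the MIS12 complex and the NDC80 complex), which grips the spindle microtubules. Kinetochores without proper attachment gather checkpoint proteins such as MAD1L1, MAD2L1, BUB3 and the product of BUB1B, and these hold back the anaphase-promoting complex. The RNA of many of these genes is known to peak in G2 and mitosis.

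The estimated counts summed to between 18573309 and 22953834 in 5 of the libraries and to 45308792 in IR 3. IR 3 stood apart, with a chi-square per gene of 29.1 and 32.2 against the other IR libraries, where the other pairs of a group had 3.45 to 9.15, a measure that also grows with depth. Its deposited file is marked in a way that may mean a repeat run, on which the labels and the paper are silent. CDKN1A, the gene of the p53-induced inhibitor p21, checked the treatment, with 122, 124 and 120.3 CPM (counts scaled to library size) in the untreated libraries and 322, 341 and 389.96 CPM after IR, a log2 fold change of 1.53 (SE 0.079). Of the markers of the line, COL1A1, SPARC and VIM were abundant and RUNX2 was present but fell after IR (log2 fold change −0.36, edgeR adjusted p = 0.0250), while COL1A2 stood at no more than 2.14 CPM in any library. Of 8 markers of blood, epithelial and endothelial cells, EPCAM was the highest at 8.55 to 10.6 CPM, CD3E was at 0 in every library, and the 8 summed to 13.4 to 14.7 CPM before and 13.3 to 15.7 CPM after IR. CDH1, an epithelial marker, rose from 1.87, 2.01 and 2.35 to 3.39, 3.43 and 2.77 CPM (log2 fold change 0.61, edgeR adjusted p = 0.0465). KRT5, also epithelial, went down from 0.604, 0.312 and 0.538 to 0.145, 0.218 and 0.133 CPM and was too low to be tested. EPCAM did not pass (edgeR adjusted p = 0.614). PTPRC, a blood marker, went from 1.76, 1.43 and 1.27 to 1.06, 0.817 and 0.753 CPM and did not pass (edgeR adjusted p = 0.0607).

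After IR, 26 of the 43 genes were lower, 1 was higher and 16 did not pass the test (edgeR's quasi-likelihood test, adjusted over 14323 tested genes at a threshold of 0.05). Over all tested genes, 14.5% were called lower and 15.5% higher. The median log2 fold change of the 43 genes was −0.29, against 0.01 over all tested genes, and 37 of the 43 lay below 0, against 48.7% of all tested genes. In 30 of the 43 genes every IR library lay below every untreated library (23.3% of all tested genes), in 1 every IR library lay above (23.8%), and in 12 the groups overlapped. A fall of more than 0.5 on the log2 scale that passed the test was found in 6 genes, CENPF, CENPE, KNL1, SGO2, BUB1B and CENPP (3.74% of all tested genes).

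**Figure D1:**
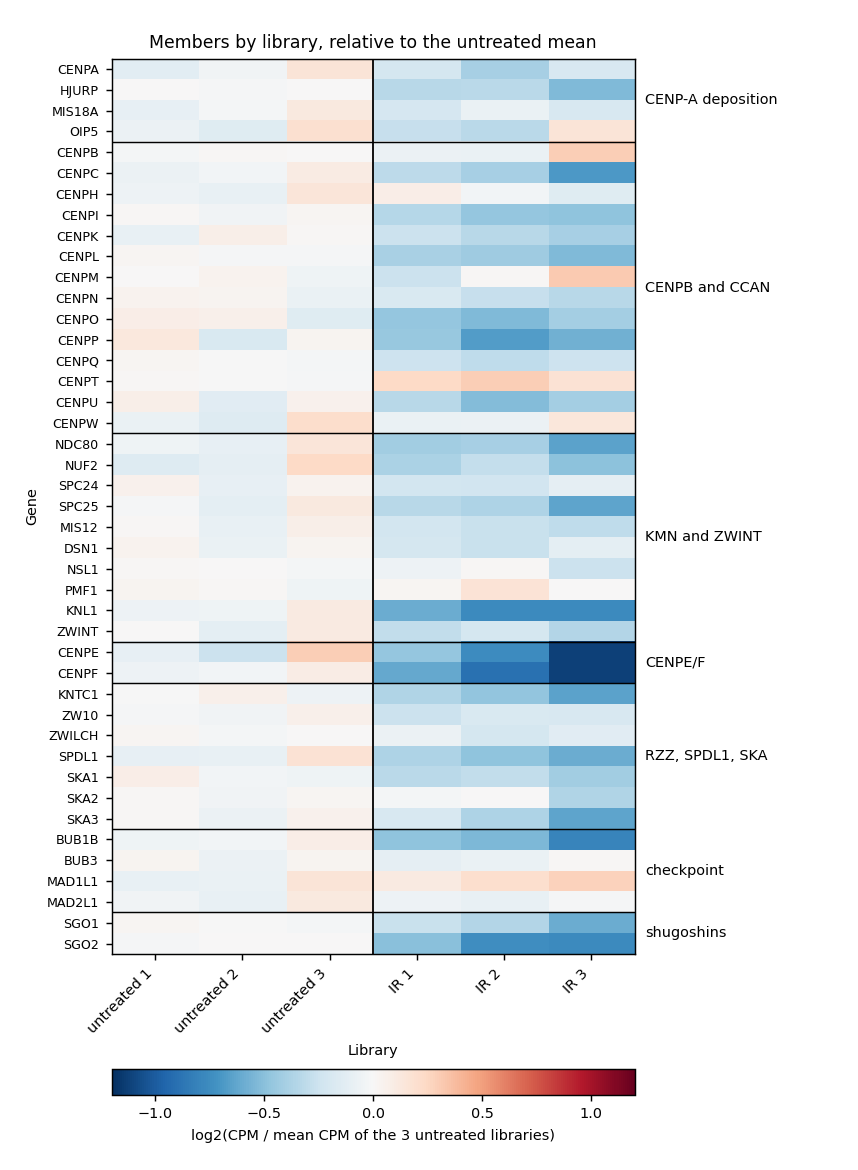
Each row is a gene, grouped by role, and each column a library; the colour gives log2 of the CPM over the mean CPM of the 3 untreated libraries. CENPF and CENPE in IR 3 are the darkest blue cells, most IR cells are blue, and CENPT and MAD1L1 are among the few rows that are red in every IR library.

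The size of the shift varied between the IR libraries. Relative to the untreated mean, the median of the 43 genes on the log2 scale was −0.26 in IR 1, −0.30 in IR 2 and −0.36 in IR 3, while the medians of all tested genes were between 0.00070 and 0.010. IR 3, the deepest library, had the lowest value of the 3 in 26 of the 43 genes, IR 2 in 11 and IR 1 in 6. Such counts were not made over all tested genes or with base composition taken into account. They thus cannot be read as particular to the 43 genes. Without IR 3, 29 of the 43 genes were called lower, against 1986 of all 14495 genes tested in that fit. Fewer cells in G2 or mitosis and less RNA per cell cannot be told apart in bulk RNA. Of 39 other genes that are commonly used as G2/M markers, 28 were lower, 1 was higher and 10 did not pass. Over all tested genes, 14.5% were lower and 15.5% higher. The list was added after results were seen. CDK1, CCNB2 and UBE2C were among the 10, with log2 fold changes of −0.13, −0.076 and 0.017. The summed level of the 39 was 8869 to 9217 CPM in the untreated and 6611 to 7213 CPM in the IR libraries. Abundant genes weigh most in such a sum. The part of the shift of the 39 genes in the values of the 43 genes was not tested.

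The fold changes moved with base composition. Over all 14323 tested genes, genes with AT-rich transcripts tended to be lower after IR and genes with GC-rich transcripts higher, with a Pearson correlation of 0.44 between log2 fold change and GC content. Transcripts of the 43 genes had a median GC content of 42.6%, against 48.6% over all tested genes, and the correlation over the 43 genes was 0.57 (Spearman 0.45). After each library's dependence on GC content was taken out (GC trend removed), 22 of the 43 genes were lower and 0 higher (12.6% and 11.7% of all tested genes), and the median log2 fold change was −0.23. At an unadjusted p under 0.05 that fit had 2 genes higher, and the DESeq2 test, run without the removal, called 1 higher. The 2 fits shared 20 of the lower genes. CENPK, CENPN, CENPQ, NUF2, MIS12 and ZW10 lost the call, and CENPB and SPC24 gained it. The fold changes also moved with transcript length, taken per gene as the mean over its transcripts weighted by abundance, on a log10 scale. The Pearson correlation was −0.67 over the 43 genes and −0.29 over all tested genes. CENPF and CENPE, with the longest mean lengths, had the lowest fold changes. The longest leading transcript was that of NSL1, at 13115 bases, but the mean length of NSL1 was 1585 bases. NSL1 had a log2 fold change of −0.10. An effective length per gene was then used as an offset. In each library it was the mean of the deposited values of the gene's transcripts, weighted by TPM. It thus also follows how reads were estimated to divide between transcripts. With this offset, 12 of the 43 genes were lower and 0 higher (6.11% and 5.83% of all tested genes). At an unadjusted p under 0.05 25 were lower and 0 higher. The share of all tested genes at an unadjusted p under 0.05 was not worked out for any fit. Counts at that threshold, here and below, thus cannot be set against such a share. CENPC, CENPK, CENPN, CENPP, CENPQ, NUF2, MIS12, ZWINT, CENPE, CENPF, KNTC1, ZW10, SPDL1 and SGO1 lost the call of lower with this offset, at edgeR adjusted p-values from 0.0515 (CENPF) to 0.170 (KNTC1). These correlations are across genes, which are not independent replicates.

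Promoters were read because the genes moved together. RefSeq promoters on GRCh38.p14, from 250 bases before to 50 after the start of transcription, were given for 36 of the 43 genes, all but MIS18A, CENPH, CENPL, CENPM, KNL1, KNTC1 and BUB3. Searched on both strands, the hexamers TTTGAA and TTCGAA, known as cell cycle genes homology region (CHR) letters, were in 19 of the 36 (52.8%), against 19.5% of 27305 genes with a promoter and 16.1% of the tested genes. Of the 23 genes called lower 15 held such a hexamer (65.2%), against 22.2% of all tested genes called lower, and of the other 13 genes 4 did. In the 50 bases before the start 22.2% of the 36 genes had a match, against 3.43% of all, and in the 50 bases after it 25% did, against 3.03%. CCAAT was found in 23 of the 36 (63.9%), against 39.7% of all genes with a promoter and 43.2% of the tested genes. It was in 15 of the 23 genes called lower (65.2%) and in 8 of the other 13 (61.5%). Of all tested genes called lower, 45.3% held it. Both CCAAT and a CHR-like hexamer were in 13 of the 36 (36.1%, against 9.02% of all genes with a promoter). The E2F letters TTTGGCGC, TTTCGCGC and TTTCCCGC were found in 4 of the 36 (11.1%), against 3.30% of all genes with a promoter, 5.47% of the tested genes and 8.34% of the tested genes called lower, and in 2 of the 23 genes called lower (8.70%). A match is a match of letters and was not measured as a binding site.

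**Figure D2:**
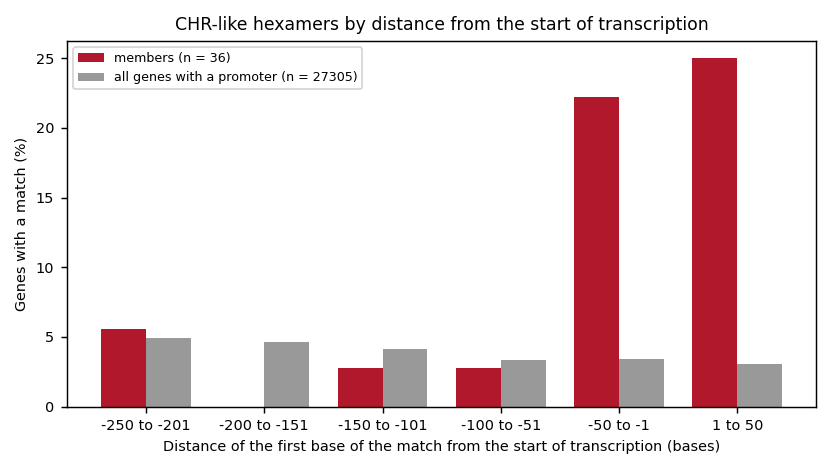
Share of genes (y, %) with a CHR-like hexamer that begins at a given distance from the start of transcription (x, equal bins), for the 36 genes with a promoter (red) and for all 27305 genes with a promoter (grey). The red bars reach 22.2% and 25% in the bins on either side of the start and stay at or below 5.56% farther upstream, while the grey bars lie between 3.03% and 4.94%.

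The 120 bases before the start of transcription are shown for 5 genes with a CHR-like hexamer and for CENPT, the gene called higher, to let the position of the letters be seen. Capitals mark the hexamer and CCAAT as they read on either strand (TTCAAA and ATTGG are their reverse complements). The stretches are from GRCh38.p14, CENPA chr2:26785936-26786055, plus strand, HJURP chr2:233854536-233854655, minus strand, CENPC chr4:67545504-67545623, minus strand, BUB1B chr15:40160949-40161068, plus strand, SPDL1 chr5:169583653-169583772, plus strand and CENPT chr16:67847694-67847813, minus strand, each written 5′ to 3′ on the strand of the gene. SPDL1 has a further start in the table, which is not shown.
CENPA: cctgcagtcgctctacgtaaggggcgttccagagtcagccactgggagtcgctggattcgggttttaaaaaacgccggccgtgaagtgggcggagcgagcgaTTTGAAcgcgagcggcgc
HJURP: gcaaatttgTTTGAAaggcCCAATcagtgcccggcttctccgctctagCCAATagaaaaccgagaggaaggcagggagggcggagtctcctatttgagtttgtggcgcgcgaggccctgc
CENPC: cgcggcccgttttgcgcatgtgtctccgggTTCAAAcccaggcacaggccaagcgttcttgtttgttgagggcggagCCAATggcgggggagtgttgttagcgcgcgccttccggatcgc
BUB1B: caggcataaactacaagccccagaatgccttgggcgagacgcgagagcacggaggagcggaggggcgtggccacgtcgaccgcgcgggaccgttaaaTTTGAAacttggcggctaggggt
SPDL1: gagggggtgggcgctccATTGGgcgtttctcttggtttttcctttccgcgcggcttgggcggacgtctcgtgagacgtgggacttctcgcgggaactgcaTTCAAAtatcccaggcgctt
CENPT: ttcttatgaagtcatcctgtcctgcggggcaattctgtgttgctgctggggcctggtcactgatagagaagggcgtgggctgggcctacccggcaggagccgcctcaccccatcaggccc
In BUB1B and CENPA the hexamer begins 23 and 18 bases before the start, and in SPDL1 20 bases before it. In CENPC and HJURP it lies farther away, at 90 and 111 bases, and HJURP has CCAAT at 101 and 72 bases. The stretch of CENPT holds none of these letters. The genes shown were picked, and CENPA among them was not called lower. Genes called lower without a CHR-like hexamer, such as CENPI and SGO2, are not shown.

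Of CENPA and its 3 loading factors, 1 was lower and 3 did not pass. HJURP, the chaperone that brings CENPA to the centromere, had 81.2, 79.7 and 81.2 CPM in the untreated libraries and 64.1, 64.6 and 55.8 CPM after IR, with every IR library below every untreated one. It fell by 0.40 on the log2 scale (SE 0.074, edgeR adjusted p = 0.00398), which was 23.98% below the untreated level, and its fold change with the GC trend removed was −0.38. CENPA had 53.9, 57.3 and 65.8 CPM before and 51.1, 44.7 and 51.6 CPM after IR, and the groups did not overlap, but its log2 fold change of −0.26 missed the threshold (edgeR adjusted p = 0.0520, 95% interval −0.46 to −0.06). CENPA passed it without IR 3 (edgeR adjusted p = 0.0303), with the stricter count filter, DESeq2's size factors or Wald test, edgeR's likelihood ratio test, and the replicate block with GC removal, at adjusted p-values from 0.0325 to 0.0488. It did not pass without a count filter, with the block, GC removal or length offset alone, or in TPM, at adjusted p-values from 0.0566 to 0.0756, nor without any 1 of the other libraries (0.0544 to 0.184). MIS18A, which licenses the loading, had 57.2, 60.4 and 66.3 CPM and then 53.4, 58.1 and 53.6 CPM. OIP5, its partner in the Mis18 complex, had 22.5, 21.3 and 26.97 CPM and then 19.4, 18.9 and 26.3 CPM, with IR 3 within the untreated range. The 95% intervals were −0.33 to 0.012 for MIS18A and −0.42 to 0.19 for OIP5, so that falls like that of HJURP were outside the first and inside the second.

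Of CENPB, which binds the repeats of centromeric DNA, and 13 genes of the constitutive network, 9 were lower, 1 was higher and 4 did not pass. CENPS, CENPX and ITGB3BP, 3 further genes of the network that are not among the 43, did not pass either (edgeR adjusted p = 0.510, 0.510 and 0.237). CENPC, which links CENPA nucleosomes to the outer kinetochore, had 38.6, 39.5 and 43.2 CPM untreated and 32.4, 30.7 and 25.04 CPM after IR, and fell by 0.47 (SE 0.10, edgeR adjusted p = 0.00793). Most of its reads were estimated on 2 transcripts annotated for nonsense-mediated decay, with 37.97% to 49.6% and 36.6% to 43.9% of the gene in a library. Only 3.04% to 7.02% were on protein-coding transcripts. The coding transcripts of CENPC were not tested alone. CENPI and CENPK bind in a complex with CENPH. CENPI had 50.02, 47.9 and 50.3 CPM and then 38.9, 35.9 and 35.4 CPM, CENPK had 38.2, 42.7 and 41.1 CPM and then 34.1, 32.4 and 30.9 CPM, and both fell, with every IR library below every untreated one. The call of CENPK was lost without untreated 2 (edgeR adjusted p = 0.0534) and with the GC trend removed (edgeR adjusted p = 0.308). CENPH had 61.1, 59.9 and 70.7 CPM and then 67.4, 62.6 and 57.8 CPM, with overlap of the groups and a 95% interval of −0.22 to 0.16 around −0.032.

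CENPL and CENPN, a pair that contacts the CENPA nucleosome, also fell. CENPL went from 39.1, 37.9 and 38.1 to 29.4, 28.5 and 26.6 CPM, a log2 fold change of −0.45 (SE 0.072, edgeR adjusted p = 0.00213), and CENPN from 107, 107 and 98.7 to 91.9, 85.8 and 82.6 CPM, one of −0.27. The call of CENPN was lost with the GC trend removed (edgeR adjusted p = 0.0507) and without untreated 1, untreated 2 or IR 2 (edgeR adjusted p of up to 0.0761), and that of CENPL was kept in these fits. CENPO, CENPP, CENPQ and CENPU, 4 genes of a further complex, were each called lower, while ITGB3BP, which codes for its subunit CENPR and is not among the 43 genes, had 36.1, 38.3 and 40.3 CPM and then 38.9, 33.9 and 30.6 CPM and did not pass (edgeR adjusted p = 0.237). CENPO had 159, 156 and 136 CPM before and 109, 104 and 113 CPM after IR, and fell by 0.47 (edgeR adjusted p = 0.00216). CENPP, the lowest of the 43 genes in TPM, had 15.04, 12.2 and 14.1 CPM and then 10.1, 8.66 and 9.23 CPM and fell by 0.56 (SE 0.12). It lost the call with the length offset (edgeR adjusted p = 0.0824) and in TPM (−0.31, limma adjusted p = 0.142). CENPU went from 58.8, 51.1 and 58.2 to 44.5, 39.1 and 42.2 CPM and CENPQ from 19.7, 19.3 and 19.1 to 16.3, 15.6 and 16.3 CPM, with no overlap in either. The call of CENPQ was lost without untreated 1, untreated 2, untreated 3 or IR 2 (edgeR adjusted p of up to 0.0994). After CENPE, CENPQ had the lowest GC content of the 43 genes, 34.0%, and with the GC trend removed its log2 fold change was −0.0058.

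CENPT, which carries NDC80 complexes on an arm of its own, was the gene called higher. It had 37.5, 36.97 and 36.7 CPM in the untreated and 43.9, 45.4 and 41.8 CPM in the IR libraries, which did not overlap, and rose by 0.23 (SE 0.068, edgeR adjusted p = 0.0258). The call was lost when untreated 1, untreated 2, untreated 3, IR 1 or IR 2 was left out, with an adjusted p of up to 0.0995, and the log2 fold change was 0.029 with the GC trend removed and 0.083 with the length offset. Its exons overlap those of 3 genes on the other strand, and its reads were spread over 27 transcripts, with 23.7% to 44.2% of them on protein-coding ones. CENPW, the partner of CENPT in the complex, had 21.5, 20.5 and 26.4 CPM and then 21.5, 21.8 and 24.98 CPM. CENPM, a further member of the network, had 29.5, 30.1 and 28.3 CPM and then 24.4, 29.7 and 36.5 CPM. Both overlapped between groups, with 95% intervals of −0.24 to 0.25 and −0.23 to 0.33. CENPB had 70.01, 71.8 and 71.1 CPM and then 67.4, 67.3 and 86.99 CPM, with IR 3 above all other libraries. The GC-rich CENPB transcript (66.5% GC) had a log2 fold change of 0.064 (edgeR adjusted p = 0.652) in the fit without and −0.40 (edgeR adjusted p = 0.000892) in that with removal of the GC trend, a change of sign.

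The KMN network and ZWINT, which binds KNL1, had 6 of 10 genes lower and 0 higher, with 0 of the 10 at an unadjusted p under 0.05 in the upward direction in edgeR. KNL1 (chr15:40594020-40664342, plus strand, 26 exons in the canonical transcript), the scaffold on which the checkpoint proteins gather, had the lowest p-value of all 43 genes. It went from 119.97, 120.2 and 135 CPM to 82.5, 73.5 and 73.4 CPM and fell by 0.71 (SE 0.076, edgeR adjusted p = 0.000395), with every IR library below the untreated ones. Between 25.3% and 43.2% of its reads in a library were estimated on a transcript annotated for nonsense-mediated decay and 45.6% to 61.1% on the canonical one. All 4 genes of the NDC80 complex had every IR library below every untreated one. NDC80 went from 152, 147 and 174 to 118, 119.5 and 101 CPM and fell by 0.49 (SE 0.089, edgeR adjusted p = 0.00364), and SPC25 went from 61.4, 57.2 and 67.2 to 49.2, 47.9 and 39.99 CPM and fell by 0.44. NUF2 had 81.7, 84.6 and 107 CPM and then 70.3, 74.7 and 64.8 CPM, with untreated 3 the highest library. Its call was lost without that library (edgeR adjusted p = 0.0584) and with the GC trend removed (edgeR adjusted p = 0.176). SPC24 had 32.7, 29.6 and 32.6 CPM and then 27.1, 26.95 and 29.3 CPM, did not pass (edgeR adjusted p = 0.104), and passed with the GC trend removed at −0.33 (edgeR adjusted p = 0.00907).

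Of the MIS12 complex, which joins the constitutive network to the outer kinetochore, 1 of 4 genes was lower. MIS12 went from 30.9, 28.8 and 32.2 to 26.3, 25.5 and 24.9 CPM, a log2 fold change of −0.26 that passed (edgeR adjusted p = 0.0264) and did not with the GC trend removed or without untreated 1, untreated 3 or IR 2 (edgeR adjusted p of up to 0.0882). DSN1 had 51.2, 47.3 and 51.2 CPM and then 43.1, 41.4 and 46.01 CPM and missed the threshold (edgeR adjusted p = 0.0655), although its groups did not overlap. Without IR 3 DSN1 and SPC24 passed it (edgeR adjusted p = 0.0233 and 0.0487). NSL1, with 41.9, 41.5 and 40.8 CPM and then 39.7, 41.8 and 34.7 CPM, and PMF1, with 36.3, 35.9 and 34.3 CPM and then 35.96, 39.7 and 35.5 CPM, overlapped between groups, with 95% intervals of −0.28 to 0.08 and −0.11 to 0.23. Reads in exons that PMF1 shares with the read-through gene PMF1-BGLAP, on the same strand, were divided between the genes only by estimate. ZWINT went from 217, 199.8 and 233 to 176, 186 and 169.7 CPM and fell by 0.29 (SE 0.074, edgeR adjusted p = 0.0161), with a like value of −0.29 after the GC trend was removed. Its call was lost without untreated 1 or untreated 3 (edgeR adjusted p of up to 0.0611).

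**Figure D3:**
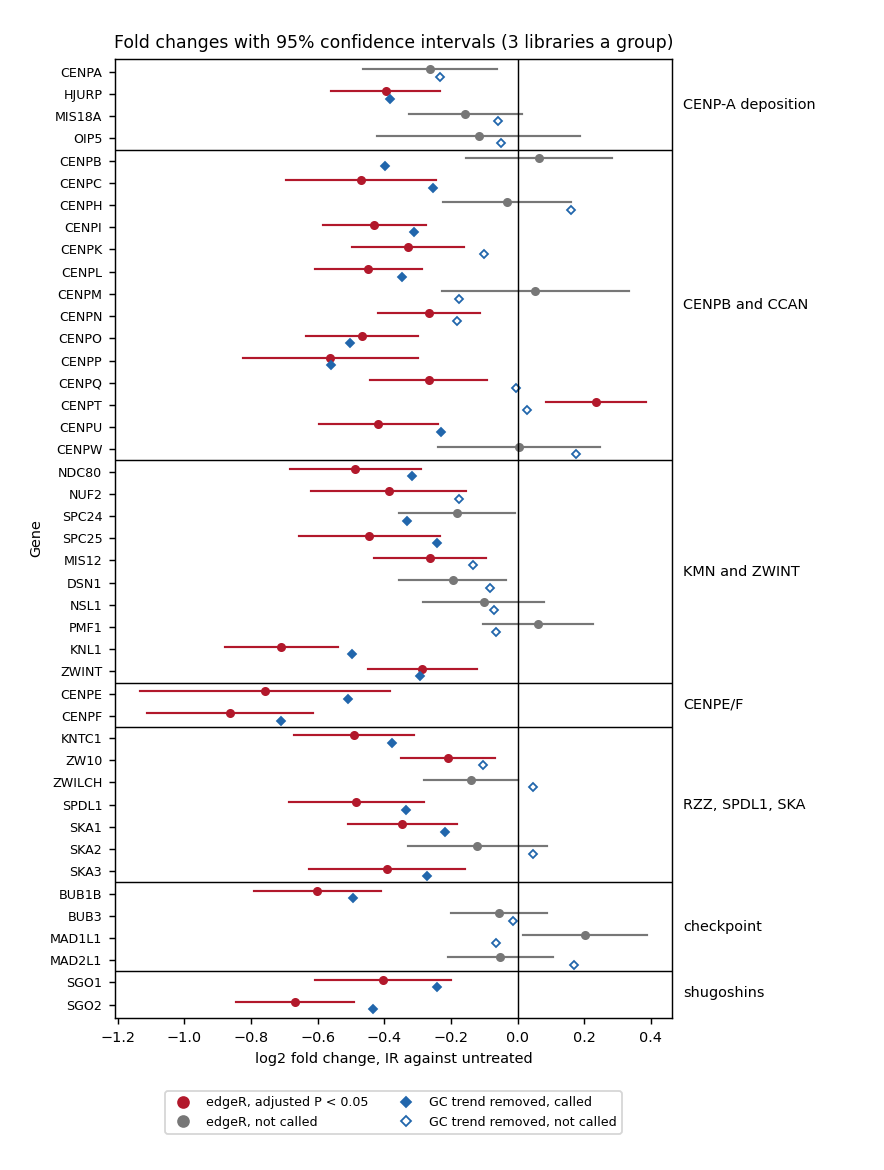
Log2 fold changes of IR over untreated (x) for the 43 genes (y) with 95% intervals, 3 libraries a group, red where the gene was called and grey where it was not; blue diamonds give the value with the GC trend removed, filled where called. CENPF, CENPE and KNL1 lie farthest to the left at −0.86, −0.76 and −0.71, and CENPT is the red point to the right of 0.

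CENPF and CENPE, large proteins of the outer kinetochore corona, had the largest falls in the fit without corrections. CENPF (chr1:214603185-214664574, plus strand, 20 exons in the canonical transcript), which binds microtubules and accumulates in G2, had 531, 543 and 589 CPM in the untreated and 362, 299 and 255 CPM in the IR libraries, a fall to 305 ± 53.9 from 554 ± 30.9 CPM (mean ± SD, n = 3). It fell by 0.86 on the log2 scale (SE 0.11, edgeR adjusted p = 0.000868), which was 45.01% below the untreated level. CENPE (chr4:103105349-103198445, minus strand, 49 exons in the canonical transcript), a kinesin that moves chromosomes to the spindle equator, had 141, 127 and 187 CPM and then 110.1, 90.1 and 69.8 CPM. Its libraries were scattered, with untreated 3 the highest and IR 3 the lowest. It fell by 0.76 (SE 0.17, edgeR adjusted p = 0.00889), between 0.58 and 0.94 when a library was left out. Both kept the call with the GC trend removed, at −0.71 and −0.51. Neither kept it with the length offset, at −0.34 (edgeR adjusted p = 0.0515) and −0.68 (edgeR adjusted p = 0.140). In TPM, the deposited unit per length, CENPF had 115, 108 and 128 untreated and 87.4, 80.9 and 100.3 after IR, so that IR 3, the lowest library in CPM, was the highest IR library in TPM. A 734-base transcript of CENPF annotated as a retained intron held 0.764%, 0.167% and 0.942% of the gene's reads untreated and 2.08%, 3.801% and 7.73% after IR, higher in all 3 IR libraries, but the transcript usage of the gene did not pass the test (edgeR adjusted p = 0.149).

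Of the ROD-ZW10-ZWILCH complex with its dynein adaptor SPDL1 and the SKA complex, 5 of 7 genes were lower and 0 higher, with 0 of the 7 at an unadjusted p under 0.05 in the upward direction in edgeR. KNTC1, which codes for ROD, went from 113, 118 and 109 to 88.5, 81.5 and 72.6 CPM and fell by 0.49 (SE 0.081, edgeR adjusted p = 0.00236), or by 0.35 with the length offset, which did not pass (edgeR adjusted p = 0.170). ZW10 went from 79.4, 78.1 and 83.9 to 67.4, 70.9 and 70.5 CPM and fell by 0.21, a call that was lost with the GC trend removed and without any library but IR 3 (edgeR adjusted p of up to 0.0988). ZWILCH had 108, 105 and 106 CPM and then 101, 91.9 and 96.7 CPM, did not overlap between groups and did not pass (edgeR adjusted p = 0.123). The 3 subunits thus had log2 fold changes of −0.49, −0.21 and −0.14, and their differences from one another were not tested. SPDL1, whose promoter is shown above, went from 89.3, 89.9 and 108 to 74.01, 68.3 and 63.2 CPM and fell by 0.48 (SE 0.091, edgeR adjusted p = 0.00415). In the SKA complex, which steadies the grip on microtubules, SKA1 went from 42.7, 39.6 and 39.1 to 32.4, 33.1 and 30.3 CPM and fell by 0.35 (SE 0.074, edgeR adjusted p = 0.00754). SKA3 went from 49.1, 46.5 and 50.5 to 42.7, 37.7 and 31.3 CPM and fell by 0.39, a call lost without untreated 1 or untreated 3 (edgeR adjusted p of up to 0.0704). SKA2 had 138, 133 and 139 CPM and then 135, 137 and 106 CPM, with only IR 3 below the untreated libraries.

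The checkpoint proteins were divided, with BUB1B lower and BUB3, MAD1L1 and MAD2L1 not called, and the difference between these genes was not tested. BUB1B (chr15:40161023-40221123, plus strand, 23 exons in the canonical transcript), which codes for the BubR1 subunit of the mitotic checkpoint complex, had 177, 179 and 194 CPM untreated and 131, 126 and 106 CPM after IR. Every IR library lay below every untreated one, and it fell by 0.60 (SE 0.086, edgeR adjusted p = 0.00130), which was 34.1% below the untreated level. Its exons overlap those of PAK6 and of a read-through gene on the same strand, and 86.2% to 95.5% of its reads in a library were estimated on its canonical transcript. BUB3, its partner, had 165, 153 and 164 CPM and then 149, 152 and 162 CPM, and MAD2L1 110.4, 107 and 123 CPM and then 109, 106 and 113 CPM, with overlap between the groups. The 95% intervals were −0.20 to 0.089 for BUB3 and −0.21 to 0.11 for MAD2L1, neither of which holds the fall of BUB1B. MAD1L1, which brings MAD2L1 to the kinetochore, had 71.7, 72.2 and 85.3 CPM and then 82.6, 88.1 and 92.7 CPM, with untreated 3 above IR 1. Its log2 fold change of 0.20 missed the threshold (edgeR adjusted p = 0.0937), passed it without untreated 3 (edgeR adjusted p = 0.0320), and was −0.064 with the GC trend removed. For MAD2L1 57.5% to 65.2% of the reads in a library were estimated on a transcript annotated for nonsense-mediated decay.

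Both shugoshins were lower. SGO2 (chr2:200510008-200584096, plus strand, 9 exons in the canonical transcript), which brings the kinesin KIF2C to the centromere, had 84.1, 85.7 and 85.7 CPM untreated and 60.02, 50.7 and 50.3 CPM after IR. It fell by 0.67 (SE 0.08, edgeR adjusted p = 0.000632), which was 37.1% below the untreated level. SGO1, which protects the cohesion of sister chromatids at the centromere in mitosis, had 37.8, 37.1 and 36.6 CPM and then 30.9, 29.1 and 24.6 CPM and fell by 0.40 (SE 0.092, edgeR adjusted p = 0.00962). Both kept the call with the GC trend removed, at −0.43 and −0.24, and SGO2 kept it with the length offset, at −0.73.

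Compared per length, the 43 genes covered a wide range of levels. SKA2 and ZWINT were highest, at 313 ± 13.1 and 305 ± 36.3 TPM in the untreated libraries (mean ± SD, n = 3), and did not differ beyond their spread. BUB1B, MAD2L1, SPC25, CENPH and BUB3 followed, from 184 ± 13.1 down to 165 ± 6.0 TPM, and neighbours in this order did not differ beyond their spread. CENPP was lowest at 2.35 ± 0.229 TPM, below CENPB at 22.3 ± 0.450 and MIS12 at 23.6 ± 1.33 TPM, which overlapped. After IR BUB1B stood at 96.9 ± 29.5 TPM, below MAD2L1 at 152 ± 9.01 and BUB3 at 143 ± 6.41 TPM, with IR 3 of BUB1B at 64.2 TPM.

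How the reads of a gene were divided between its transcripts passed the test in 2 of the 39 genes that could be tested, SKA1 and ZWILCH, against 2.67% of all 10666 genes tested (edgeR's diffSpliceDGE). A SKA1 transcript of 1095 bases held 1.45%, 1.32% and 2.83% of the gene's reads untreated and 0 after IR (adjusted p = 0.0140). A ZWILCH transcript of 1845 bases held 3.31%, 3.84% and 1.29% untreated and 0 after IR (adjusted p = 0.0210). In both genes the transcript was a small part of the reads, and an estimate of 0 in kallisto can come from reads assigned to a like transcript. Both calls were lost without untreated 1, untreated 2 or IR 3. For CENPC, CENPU and MAD2L1 the leading transcript was not annotated as protein coding, and in 25 of the 43 genes over 90% of the reads were on coding transcripts in every library. Exons of 16 of the 43 genes overlap those of another gene, in 4 of them on the same strand (CENPA with SLC35F6, PMF1, BUB1B and MAD1L1), and the counts of these genes are uncertain to that extent.

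Of 34 other genes of the kinetochore and checkpoint, 20 were lower and 0 higher, with a median log2 fold change of −0.25. At an unadjusted p under 0.05, 0 were higher in edgeR and 1 in DESeq2. The 3 of lowest p-value were BUB1, TTK and ERCC6L. BUB1, the kinase that brings the shugoshins to the centromere, had 211, 211 and 211 CPM and then 154, 149 and 144 CPM and fell by 0.50 (SE 0.059, edgeR adjusted p = 0.000612), with untreated libraries almost equal. TTK, the kinase that starts checkpoint signalling at KNL1, had 72.9, 73.3 and 75.9 CPM and then 53.6, 53.5 and 46.8 CPM and fell by 0.53. ERCC6L, the helicase PICH of ultrafine anaphase bridges, had 52.1, 54.3 and 57.3 CPM and then 38.2, 38.98 and 32.97 CPM and fell by 0.58. The share of lower genes was thus above the 14.5% of all tested genes in this list as well, which is given as a count with no test.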

How the data were processed

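RNA of 3 untreated and 3 IR libraries was measured. Adaptors were removed with fastp and reads pseudoaligned by kallisto to GENCODE release 37 (GRCh38.p13) by the authors, and the deposited estimated counts are per transcript and not normalized. TPM, as deposited, is the authors' value per effective length and per library. According to the labels the RNA was poly(A) RNA prepared with an mRNA kit, whereas a total RNA kit is named in the paper's methods; strandedness is not given in the sources used here, so that reads of genes overlapping on opposite strands cannot be told apart. kallisto's division of reads between like transcripts is an estimate.

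Transcripts were matched by identifier to GENCODE 44 (GRCh38), which gave symbols, coordinates and exons. The 2460 without a match held 1.54% to 1.80% of the counts of a library and were not used. Counts were added up by gene, rounded, filtered by filterByExpr, scaled by TMM and tested by edgeR 4.0.16 (glmQLFit and glmQLFTest, R 4.3.3, limma 3.58.1, DESeq2 1.42.0) with Benjamini-Hochberg adjustment over all tested genes. CPM use TMM-scaled library sizes, and SE was obtained from the log2 fold change and the F statistic. The GC trend was a loess fit (span 0.3) per library used as an offset. For part of the transcripts the deposited effective length exceeds the length, so that the length offset may act on more than length. Transcript usage was tested by diffSpliceDGE with Simes p-values. The scripts were tested on simulated counts, in which the usage test missed most changes, so that genes it does not call carry little information.

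The genes, their roles, the list of other kinetochore genes and the settings were chosen with earlier results of these data known, and the list of other G2/M genes (of the list distributed with Seurat) was added later. Values are printed for the 2 genes of lowest and the 1 of highest p-value in each role, for genes called higher and for genes whose call changes with GC removal or the length offset, and all others are given with them. Alternatives were the filter on low counts, size factors and Wald test of DESeq2, the likelihood ratio test of edgeR, a block by replicate number, GC removal, the length offset, limma on log2(TPM + 1) and leaving out each library. Replicates of a group differed by more than sampling noise (chi-square per gene of 3.45 to 9.15 for pairs without IR 3 and of 29.1 and 32.2 for pairs with it, the deepest library; the measure grows with depth), and no library was counted as a copy. Depth was 18573309 to 45308792 counts per library. Some items of the marker list are not reported by name here.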

Additional observations from a re-analysis of the deposited data

How the results depend on the processing

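The number of the 43 genes called lower stayed between 20 and 27 under the filters, DESeq2's size factors and Wald test, the likelihood ratio test, the replicate block and GC removal, and was 12 with the length offset and 13 with limma on log2(TPM + 1). It was 20 to 29 when a library was left out. Over all tested genes, 1595 to 2194 were lower in the fits from the filters to GC removal, of 13626 to 18780 tested. With the length offset and with limma it was 875 of 14323 each. With a library left out it was 1244 to 2284, of 14495 to 14573 tested. Of the 26 genes, 18 kept the call without each library in turn, and 8 kept it in every setting (HJURP, CENPI, CENPL, CENPU, NDC80, KNL1, BUB1B and SGO2). The number called higher was 0 with the replicate block, GC removal, both together, the length offset and TPM, and 0 to 1 when a library was left out. Over all 14323 tested genes, 1727, 1673, 1477, 835 and 393 were higher in the first of these fits, in that order. With a library left out it was 1295 to 2114, of 14495 to 14573 tested. The other kinetochore genes had 12 lower with the length offset, 13 with TPM and 14 to 21 when a library was left out. Transcript usage passed in 4 genes with at least 10 counts of the transcript, 1 with the replicate block and 0 to 2 when a library was left out. For these usage fits the share of all tested genes was not worked out, so the counts cannot be set against one. The median log2 fold change of the 43 genes was −0.32 to −0.28 when a library was left out.

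The replicate numbers are shared by the groups. For same-numbered libraries, the deviations from the group means had correlations of −0.0099, −0.031 and −0.066. Libraries of unlike number were not compared in this way. Whether same-numbered libraries share a culture or batch thus cannot be told from these values. With the replicate block, 23 of the 43 genes were lower (11.3% of all tested genes), without CENPQ, MIS12 and ZW10. With the block and GC removal 20 were lower (1595 of the 14323 tested genes).

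The sign changed with GC removal, and with the block added to it, for CENPB (−0.40 and −0.40), CENPH (0.16 and 0.16), CENPM (−0.18 and −0.19), PMF1 (−0.064 and −0.063), ZWILCH (0.047 and 0.045), SKA2 (0.047 and 0.044), MAD1L1 (−0.064 and −0.059) and MAD2L1 (0.17 and 0.17). MAD1L1 was −0.039 with the length offset and −0.088 in TPM. CENPW was −0.0017 with DESeq2's size factors, −0.0029 in its Wald test and −0.00027 in TPM. With a library left out, the range held both signs for CENPB (−0.085 to 0.12), CENPH (−0.10 to 0.048), CENPM (−0.13 to 0.17), CENPW (−0.083 to 0.12) and MAD2L1 (−0.093 to 0.010). Of the values with a changed sign, only those of CENPB with GC removal passed the test. The cause of these changes was not tested. With 3 libraries a group, a gene that did not pass is not shown to be equal.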
